A study of Bos taurus with 4 samples.

Results

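The ligands, receptors, extracellular inhibitors and intracellular transducers of the Wnt, BMP, TGF-beta, FGF and Notch pathways were examined in bovine subcutaneous adipose tissue. A member is a cluster (a group of transcripts standing for a gene, with 1 sequence representing it) whose sequence header holds one of 9 pathway words, such as "frizzled", "bone morphogenetic protein" or "SMAD family". In the deposited sequences 94 headers held such a word, and 78 of them had an entry in the sample files, of 36373 clusters in all and 13230 with a named header. The other 16 were not analysed here. The 78 members comprised 12 Wnt ligands, 8 frizzled receptors, 5 secreted frizzled-related proteins, 3 TGF-beta ligands, 3 inhibin/activin subunits, 14 BMP or GDF ligands, 6 receptors and receptor-associated proteins of the TGF-beta family, 7 SMADs, 7 secreted and 4 intracellular FGFs, 5 FGF receptors, 2 FGF binding or substrate proteins, 1 Notch receptor, and SMO. SMO carries the word frizzled in its name but is the transducer of Hedgehog signalling, and the Notch word found NOTCH4 alone. TGFBR1, the type I TGF-beta receptor, is spelled differently in its header and is no member. It was looked up after its values were seen and its level was 1.33 RPKM in ATFB against 4.81, 6.57 and 5.90 in ATAB, ATAH and ATAS.

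The tissue came from Qinchuan cattle, a Chinese breed, in 4 groups with 1 pooled library of 5 animals each, so there were no replicates and the animals of a pool cannot be told apart. ATFB was made from fetuses of 200 to 250 days, ATAB from adult bulls, ATAH from adult heifers and ATAS from adult steers (castrated males), the adults being labelled as 18 to 24 months old. The labels name no agent or altered allele in any group and no sex for the fetuses. XIST, which the silenced X of female cells makes, reached 36.3 RPKM in the fetal and 28.1 in the heifer library, while bulls and steers had 0.193 and 0.276, so the comparisons of ATFB with ATAB and ATAS also set libraries with and without this RNA apart, and sex and stage cannot be told apart there.

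The libraries held 15.3 to 16.1 M counted reads, of which members took 0.287% to 0.343%. RPKM, the read count divided by sequence length and library size, sets levels per length. The 7 measured adipocyte markers (ADIPOQ, LEP, LIPE, PLIN1, CIDEC, LPL, PNPLA2) were present in every library, with a summed level of 855 RPKM in ATFB and 4769.6, 5839 and 6043 RPKM in ATAB, ATAH and ATAS. The 7 stroma and matrix markers summed to 11040.3 RPKM in ATFB and to 8326, 2666 and 3524 in ATAB, ATAH and ATAS. The 5 endothelial markers summed to 224, 316, 438 and 570.4 RPKM in the same order, the 7 leukocyte markers to 123, 214, 205 and 315, and the 5 markers of smooth muscle and pericytes to between 375 and 420.01. The 4 skeletal muscle markers stayed at or below 5.11 RPKM in sum. The fetal library held red cell RNA (2390.2 RPKM over 2 markers, against at most 1.54 in an adult library) and the keratinocyte keratin KRT14 (147 reads, against 0 to 2), the 3 epidermal markers summing to 10.03, 3.22, 3.19 and 2.40 RPKM. The 4 nerve and Schwann cell markers summed to 24.2 RPKM in ATFB and 214 to 224 in the adults, of which S100B alone gave 209 to 219 there. In such bulk tissue, fewer cells of a type and less RNA per cell cannot be told apart.

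Wnt ligands bind frizzled receptors on the cell surface, and either stabilise beta-catenin or act through other routes. Secreted frizzled-related proteins resemble the outer part of a frizzled receptor, bind Wnts and mostly dampen them. Beta-catenin signalling is known to hold preadipocytes back from becoming fat cells. Ligands of the TGF-beta family, which include BMPs, GDFs and activins, act through pairs of serine/threonine kinase receptors on SMAD proteins; TGF-beta and activin A restrain adipogenesis, whereas several BMPs commit precursors to it. FGFs act through receptor tyrosine kinases, and FGF1 is known as a factor of fat tissue remodelling. Notch receptors are cleaved on contact with ligands of neighbouring cells.

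Some close relatives moved in opposite directions, and the sequences of 2 such pairs are shown here to make plain how far their reads can be told apart. The 60 coding bases in which SFRP2 (called lower in ATAB and ATAS) and SFRP5 (higher in adults) were most alike, gap-free, are coding bases 250 to 309 and 286 to 345. Capitals mark the 9 bases that differ.
SFRP2: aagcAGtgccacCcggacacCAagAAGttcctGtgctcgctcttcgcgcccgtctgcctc
SFRP5: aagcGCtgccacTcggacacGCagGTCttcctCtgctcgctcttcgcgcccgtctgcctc
The activin subunits INHBA (lower in adults) and INHBB (higher in adults) differed in 9 of 60 bases in the same kind of window, coding bases 993 to 1052 and 945 to 1004.
INHBA: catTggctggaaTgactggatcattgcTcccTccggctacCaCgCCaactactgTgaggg
INHBB: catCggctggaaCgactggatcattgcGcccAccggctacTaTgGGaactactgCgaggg
Over their aligned coding sequences, identity was 68.7% between SFRP2 and SFRP5 and 66.9% between INHBA and INHBB, and the longest run of identical bases was 30 and 20. Pairs not shown were more alike, SFRP1 and SFRP5 at 74.8% (longest run of 26 bases) and WNT5A and WNT5B at 82.2% (44 bases). WNT5B had 22 reads in ATFB against 2, 3 and 9 in ATAB, ATAH and ATAS and was called lower in ATAB and ATAH, opposite to WNT5A. A window of 50 bases found also in another cluster occurred in 24 of 78 members. A read there would match more than 1 sequence if reads were aligned to the clusters; whether they were aligned to these or to the genome is not stated for the counts, so the shares describe the sequences alone. WNT2, WNT2B, WNT5A, SFRP2, SFRP5, INHBB and FGFRL1 had none. The share of windows was 22.9% in FZD4, 16.5% in FRZB, 10.7% in SFRP1 and 10.6% in NOTCH4, each shared mainly with an unnamed cluster of at most 34 reads in any library, and 52.8% in SMAD2.

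The first question was how the fetal library differed from the 3 adult ones. A cluster was called where its reads differed at a false discovery rate (FDR) of 0.001 or less in an exact two-sided binomial test and its log2 ratio of RPKM was at least 1 in size. Such a test compares 2 libraries, not the conditions, and intervals are 95% intervals of the log2 ratio that cover counting error only. Against ATFB, ATAB had 10 members higher and 9 lower of 75 with a read, beside 13.9% and 11.7% of clusters with a named header (9.51% and 13.1% of all clusters). ATAH had 14 higher and 15 lower of 74, beside 19.9% and 9.34% (13.9% and 9.83% of all clusters). ATAS had 16 higher and 11 lower of 75, beside 22.7% and 8.74% (15.5% and 10.5% of all clusters). The median log2 ratio over the members with at least 10 reads came to -0.29, -0.13 and -0.03 for ATAB, ATAH and ATAS, where clusters with a named header had -0.01, 0.24 and 0.32.

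**Figure D1:**
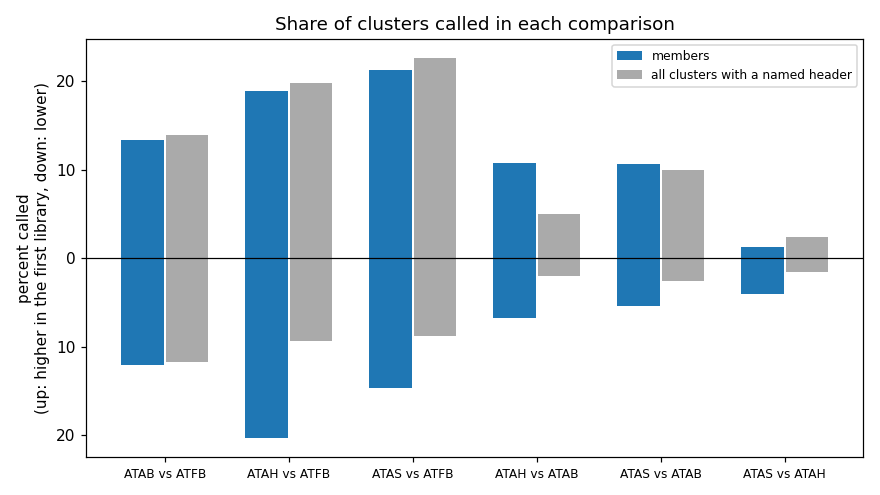
Bars give the percent of clusters with a read that were called in each comparison of 2 libraries (x axis), upwards for higher and downwards for lower in the library named first, in blue for the members and in grey for all clusters with a named header. Against ATFB the members' upward shares were near those of the named clusters, while 15 of 74 members were lower in ATAH beside 9.34% of named clusters.

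In all 3 adult libraries, 7 members were called higher than in ATFB (WNT5A, FZD4, SFRP5, INHBB, FGF1, FGFRL1, NOTCH4) and 5 lower (WNT2, WNT2B, FRZB, SFRP1, INHBA). Among clusters with a named header these shares were 10.7% and 5.19%, and among all clusters 6.79% and 6.1%. Another 25 members were called in 1 or 2 of the 3 comparisons, 12 of them higher and 13 lower, no member was called in both directions, and 41 were called in none, beside 15.4% higher, 9.78% lower and 59.2% in none of clusters with a named header. The balance of the members called in all 3 depended on the scale, with 9 higher and 5 lower under TMM or DESeq2 factors (BMP2 and SMAD3 joining), beside 11.5% and 5.16% of named clusters with TMM and 11% and 5.55% with DESeq2 factors. With ACTB reads as the scale it was 5 higher and 8 lower (INHBB and NOTCH4 leaving, SFRP2, BMP7 and TGFBR3 joining), beside 7.85% and 8.4%. The 3 comparisons share the ATFB library. A test that takes the spread from the adult libraries, though these differ in sex and castration (edgeR's quasi-likelihood test, FDR of 0.05), called 5 of 68 tested members higher in ATFB (WNT2B, FRZB, SFRP1, SFRP2, INHBA) and 7 lower (FZD4, SFRP5, BMP2, SMAD3, FGF1, FGFRL1, NOTCH4), beside 6.68% and 12.4% of clusters with a named header (8.39% and 9.83% of all clusters). Of the 12 members called in all 3 comparisons, 9 were also called by this test, and WNT2, WNT5A and INHBB were not, at adjusted p-values of 0.0825, 0.0592 and 0.0687 from edgeR. These 3 were called by edgeR's likelihood ratio test (0.0237, 0.0187 and 0.0131) and by DESeq2 (0.0381, 0.0356 and 0.0062). Without the ATAB library, the quasi-likelihood test called 25 members, 13 higher in ATFB and 12 lower, WNT2, WNT5A and INHBB among them, beside 12.2% and 19.2% of named clusters. Without the ATAH library, it called 9 members, 4 higher and 5 lower, beside 2.5% and 6.68%, and SFRP2, BMP2, SMAD3 and NOTCH4 were no longer among them. A further run of edgeR's exact test assumed a coefficient of variation of 0.4 between libraries (pools of 5 animals) in place of counting error alone. It called SFRP5 alone in each comparison with ATFB at an FDR of 0.001, beside 0.826%, 1.05% and 1.17% of named clusters. At an FDR of 0.05 it gave 5 members in each, SFRP5 and FGF1 in all 3 of them, beside 3.58%, 5.15% and 6.06%.

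**Figure D2:**
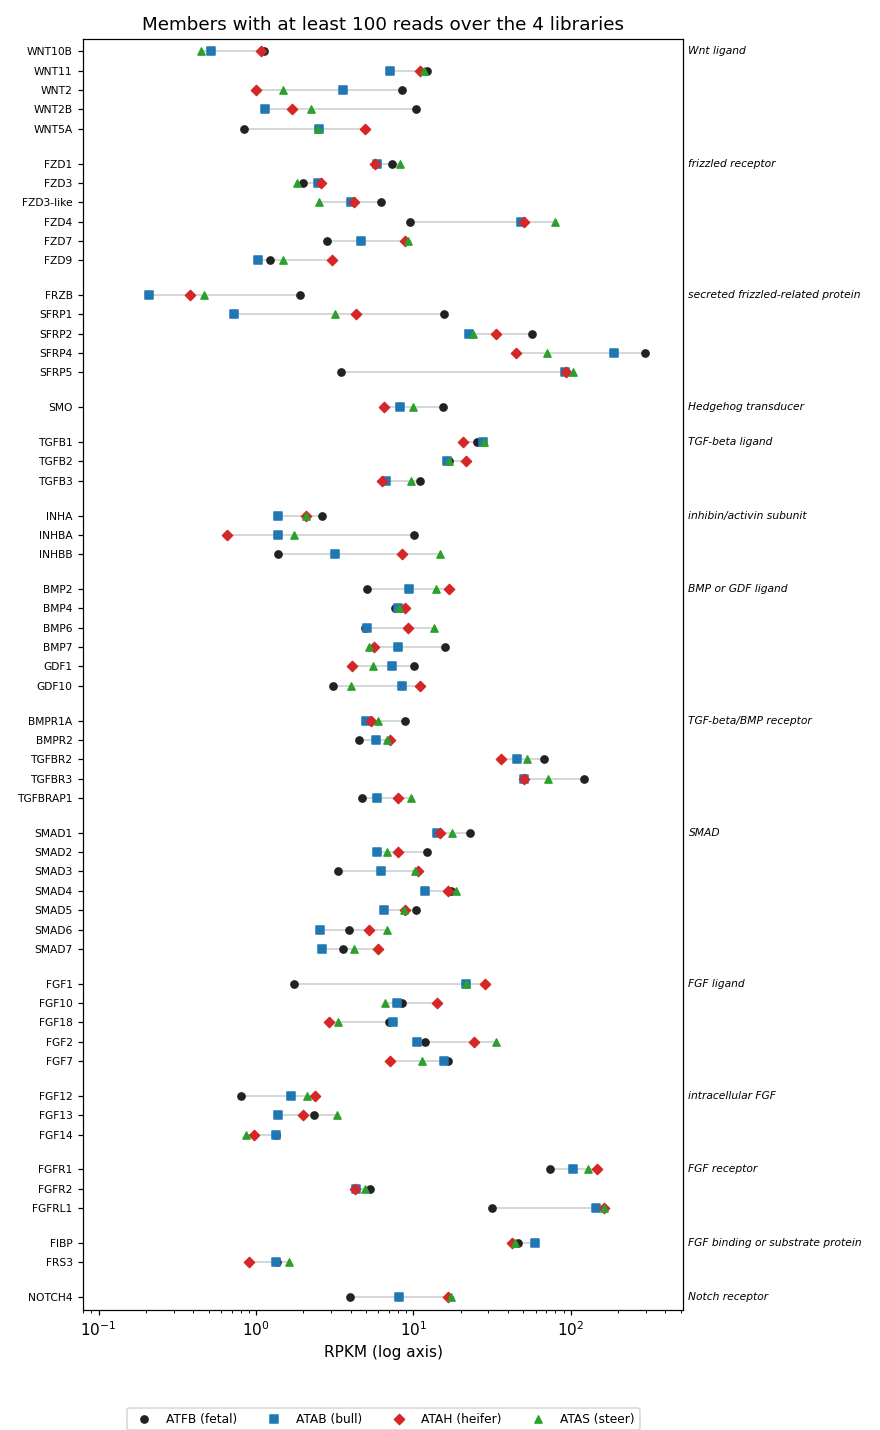
RPKM on a log axis of the 55 members with at least 100 reads over the 4 libraries, in rows grouped by role, with 1 symbol for each library. SFRP5 and FGF1 show the fetal library far below 3 adult libraries that lie close together, while SFRP1, SFRP4 and FGF2 show adult libraries that lie apart.

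Wnt ligands were lowly expressed, all but WNT11 and WNT2B staying below 10 RPKM in every library. WNT11, a ligand acting mainly outside the beta-catenin route, was the highest of them at 12.1, 7.14, 11.03 and 11.7 RPKM in ATFB, ATAB, ATAH and ATAS and was called in no comparison. WNT2B (Bt.27254) had 337 reads in ATFB and 39, 56 and 73 in ATAB, ATAH and ATAS, which is 10.5 RPKM against 1.15, 1.71 and 2.23. It was 9.14-, 6.14- and 4.70-fold lower in ATAB, ATAH and ATAS, with log2 ratios of -3.19 (-3.71 to -2.71), -2.62 (-3.05 to -2.21) and -2.23 (-2.62 to -1.86), and was called by edgeR (FDR of 0.0089). The 3 adult libraries lay within a factor of 1.94 of each other, all well below the fetal library.

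WNT2 (Bt.37360), a ligand of the beta-catenin route, had 293 reads in ATFB against 130, 35 and 52 in ATAB, ATAH and ATAS, which is 8.52, 3.58, 0.997 and 1.48 RPKM. The log2 ratios to ATFB were -1.25 (-1.56 to -0.95), -3.10 (-3.64 to -2.59) and -2.52 (-2.98 to -2.09), so the bull library lay between the fetal library and the other adults. WNT5A (Bt.88484), a ligand known for signalling without beta-catenin, went the other way, with 22 reads in ATFB and 69, 132 and 66 in ATAB, ATAH and ATAS (0.844, 2.50, 4.96 and 2.49 RPKM). Its log2 ratio to ATFB was 1.57 (0.86 to 2.33), 2.56 (1.90 to 3.28) and 1.56 (0.84 to 2.33). WNT16 had no read in ATFB but 42, 4 and 38 in ATAB, ATAH and ATAS. Taking 0 as up to 3 reads in the library, it was at least 13.2-fold higher in ATAB and at least 12.4-fold higher in ATAS than in ATFB. Its levels were below 1 RPKM in all 4 libraries.

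Among the frizzled receptors FZD4 (Bt.76547), a receptor with a known part in vessel growth, was the highest and was raised in the adults. It had 392 reads in ATFB against 2107, 2109 and 3332 in ATAB, ATAH and ATAS, which is 9.55, 48.6, 50.3 and 79.7 RPKM. The ratios were 5.08-fold in ATAB, 5.27-fold in ATAH and 8.35-fold in ATAS, with log2 ratios of 2.35 (2.19 to 2.51), 2.40 (2.24 to 2.56) and 3.06 (2.91 to 3.22), and edgeR called it at an FDR of 0.014. FZD7 rose in ATAH and ATAS (log2 ratios of 1.64 and 1.70) and FZD10 fell in the same libraries, from 22 reads in ATFB to 0 and 2. FZD3 had 2 entries, which were alike at 93.9% of 1788 aligned bases. The one named FZD3 had 87, 114, 115 and 81 reads in ATFB, ATAB, ATAH and ATAS and was called in no comparison, and the one described as FZD3-like had 171, 117, 118 and 71 reads and was called lower in ATAS, at a log2 ratio of -1.29. Of the 50-base windows of the FZD3-like entry, 2.10% were found in another cluster. The counts are of uniquely matched reads, but the reference they were matched to is not stated. With the reads of the 2 entries added together (258 in ATFB, 152 in ATAS), the log2 ratio was -0.79 and the call was lost.

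The 5 secreted frizzled-related proteins divided. SFRP5 (Bt.3968), a Wnt inhibitor known to be secreted by fat cells, had 93 reads in ATFB and 2602, 2537 and 2824 in ATAB, ATAH and ATAS, or 3.47 RPKM against 91.9, 92.8 and 104. The adult libraries lay within a factor of 1.13 of each other and were 26.5-, 26.7- and 29.8-fold above ATFB, with log2 ratios of 4.73 (4.43 to 5.04), 4.74 (4.44 to 5.05) and 4.90 (4.60 to 5.21). No other member with reads in ATFB had a larger ratio to it in all 3 libraries, and edgeR called it at an FDR of 0.0066.

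The other 4 were highest in ATFB. SFRP1 (Bt.5226) had 1016 reads in ATFB against 50, 284 and 210 in ATAB, ATAH and ATAS, which is 15.7, 0.730, 4.30 and 3.18 RPKM. It was 21.5-, 3.65- and 4.93-fold lower in ATAB, ATAH and ATAS, at log2 ratios of -4.43 (-4.86 to -4.02), -1.87 (-2.06 to -1.68) and -2.30 (-2.52 to -2.09), and edgeR called it at an FDR of 0.039. FRZB (Bt.121), of the same family, had 68 reads in ATFB and 8, 14 and 17 in the adults, and was called lower in all 3. SFRP2 had 56.6 RPKM in ATFB against 22.6, 33.5 and 24.1 in ATAB, ATAH and ATAS, and was called lower in ATAB and ATAS. SFRP4 (Bt.3540), the member with the highest mean level, had 299 RPKM in ATFB against 189, 45.0 and 70.6 in ATAB, ATAH and ATAS, and was called lower in ATAH (log2 ratio of -2.73, -2.82 to -2.64) and ATAS (-2.08, -2.15 to -2.01). In ATFB and ATAB, the libraries with the most SFRP4, the sum of the stroma and matrix markers was also the highest. Of the 7 markers, 4 (COL1A1, COL3A1, PDGFRA, LUM) were higher in both of these libraries than in ATAH and ATAS, while DCN, THY1 and FN1 were not. In ATFB the adipocyte markers were the lowest. Their part in these results was not tested.

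**Figure D3:**
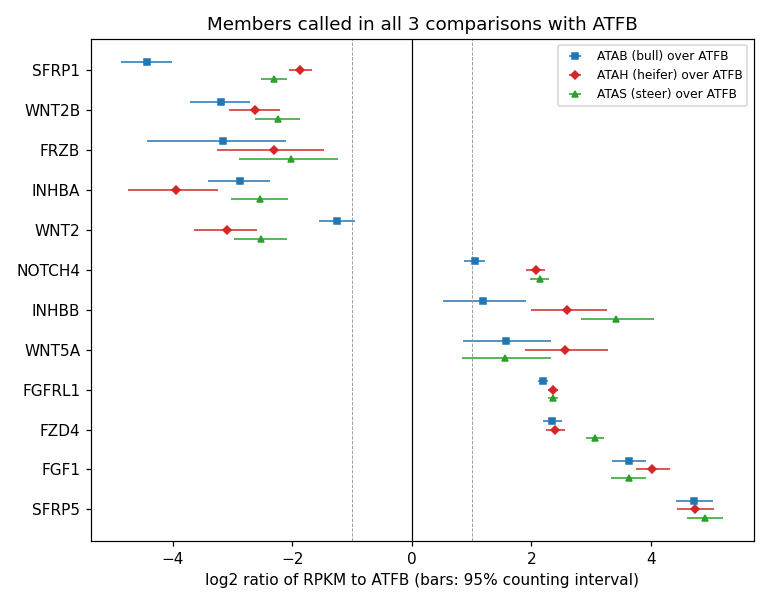
Log2 ratio of RPKM in ATAB, ATAH and ATAS to ATFB (x axis, with 95% counting intervals) for the 12 members called in all 3 comparisons; dashed lines mark log2 ratios of -1 and 1. SFRP5 and FGF1 lie farthest to the right, and SFRP1 spans -4.43 in ATAB to -1.87 in ATAH.

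In the TGF-beta family, the 3 TGF-beta ligands differed little between libraries. TGFB1, the highest on average, had 25.4, 27.5, 20.6 and 28.2 RPKM in ATFB, ATAB, ATAH and ATAS. TGFB2 lay between 16.5 and 21.5 RPKM and TGFB3 between 6.36 and 11.04, and none of them was called in any comparison.

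The activin subunits diverged. INHBA (Bt.12760), the subunit of activin A, had 257 reads in ATFB and 37, 17 and 45 in ATAB, ATAH and ATAS, which is 10.1 RPKM against 1.37, 0.654 and 1.73. It was 7.34-, 15.4- and 5.82-fold lower, with log2 ratios of -2.88 (-3.41 to -2.38), -3.95 (-4.75 to -3.24) and -2.54 (-3.03 to -2.08), and edgeR called it at an FDR of 0.015. INHBB (Bt.45028), the subunit of activin B, had 26 reads in ATFB against 63, 161 and 283 in ATAB, ATAH and ATAS, which is 1.39, 3.18, 8.42 and 14.8 RPKM. Its log2 ratio to ATFB was 1.20 (0.52 to 1.92), 2.60 (1.997 to 3.26) and 3.42 (2.84 to 4.06), and the interval in ATAB lay below those in ATAH and ATAS. INHBA exceeded INHBB in ATFB, and INHBB exceeded INHBA in every adult library. INHA, the inhibin alpha subunit, stayed between 1.38 and 2.61 RPKM and was called in no comparison.

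Among BMP and GDF ligands BMP2, which drives early commitment of precursors, had the highest mean level, at 5.10 RPKM in ATFB against 9.42, 16.9 and 13.98 in ATAB, ATAH and ATAS. It was called higher in ATAH and ATAS at log2 ratios of 1.73 (1.52 to 1.94) and 1.46 (1.24 to 1.68), and by edgeR at an FDR of 0.037. BMP7, known for its part in brown fat formation, had 15.8 RPKM in ATFB and 7.95, 5.67 and 5.20 in the adults, and was called lower in ATAH and ATAS at log2 ratios of -1.48 and -1.61, while ATAB reached -0.99. BMP4 was level, at 7.70 to 8.79 RPKM. BMP6 and GDF10 rose in some adult libraries only and are described with the adult comparisons. GDF1 was called lower in ATAH alone (log2 ratio of -1.29), and since it is known to share a transcript with a ceramide synthase gene, its reads cannot be assigned to GDF1 alone. Of the 14 ligands, BMP10, BMP8A, GDF15, GDF2 and GDF6 had fewer than 10 reads over all 4 libraries.

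Of the receptors TGFBR3 (betaglycan, a co-receptor that presents TGF-beta) was the highest, with 10952 reads in ATFB against 4785, 4615 and 6610 in ATAB, ATAH and ATAS, or 122, 50.2, 50.2 and 72.1 RPKM. It was called lower in ATAB and ATAH, at log2 ratios of -1.27 and -1.28, and had -0.75 in ATAS. TGFBR2, the ligand-binding type II receptor, was called in no comparison, at 67.8, 45.3, 35.8 and 52.9 RPKM, and BMPR1A and BMPR2 were called in none either. BMPR1B, with fewer than 100 reads over the 4 libraries, was called lower in ATAH than in ATFB, at a log2 ratio of -2.44. TGFBRAP1, a receptor-associated protein, was called higher in ATAS than in ATFB, at 1.03. That call was lost with TMM factors, DESeq2 factors and ACTB as the scale. Among the SMADs, which carry the signal to the nucleus, SMAD1 had the highest mean level and was not called, at 23.0, 14.1, 14.7 and 17.5 RPKM. SMAD3, which answers to TGF-beta and activin, had 3.34 RPKM in ATFB and 6.24, 10.7 and 10.3 in the adults. It was called higher in ATAH and ATAS at log2 ratios of 1.68 and 1.63, and by edgeR at an FDR of 0.039. SMAD2, its close relative, was called lower in ATAB only (log2 ratio of -1.06, or -0.89 with TMM and -0.92 with DESeq2 factors, short of a call), and SMAD4 and SMAD5 were called in no comparison.

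FGF1 (Bt.5038), a secreted FGF that binds every FGF receptor, was the FGF ligand with the largest ratio to ATFB. It had 107 reads in ATFB against 1397, 1779 and 1344 in ATAB, ATAH and ATAS, or 1.75 RPKM against 21.6, 28.5 and 21.6. The adult libraries were 12.3-, 16.3- and 12.3-fold higher, with log2 ratios of 3.63 (3.34 to 3.92), 4.03 (3.74 to 4.32) and 3.62 (3.34 to 3.92), and lay within a factor of 1.32 of each other. edgeR called it at an FDR of 0.0081. Of its 50-base windows, 5.49% were also in a histone H2B cluster that had 1866 to 5522 reads in each library.

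FGFRL1 (Bt.21008), a receptor that binds FGFs but lacks the kinase domain, had the highest mean level of the FGF receptors, though FGFR1 was above it in ATFB. It had 1370 reads in ATFB and 6658, 7175 and 7190 in ATAB, ATAH and ATAS, or 31.7 RPKM against 146, 163 and 163. The ratios were 4.60-, 5.13- and 5.15-fold, with log2 ratios of 2.20 (2.12 to 2.29), 2.36 (2.28 to 2.44) and 2.37 (2.28 to 2.45), and edgeR called it at an FDR of 0.014. FGFR1, a kinase receptor, had 74.0 RPKM in ATFB and 104, 148 and 129 in the adults, and did not reach a call, its log2 ratio in ATAH of 0.999 lying just under the threshold. FGFR2 was level at 4.27 to 5.31 RPKM. FIBP, a protein that binds FGF1 inside cells, had 45.9, 58.9, 42.5 and 44.0 RPKM and was called in no comparison. Of the 4 intracellular FGFs, which are not secreted and act on ion channels, FGF12 rose in ATAH and ATAS, from 22 reads in ATFB to 66 and 59. The call in ATAS was lost with DESeq2 factors (log2 ratio of 1.24) and with ACTB as the scale (1.14).

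NOTCH4 (Bt.20071), a Notch receptor known mainly from endothelial cells, had 395 reads in ATFB against 864, 1691 and 1769 in ATAB, ATAH and ATAS, or 3.95, 8.17, 16.6 and 17.4 RPKM. Its log2 ratios to ATFB were 1.05 (0.88 to 1.22), 2.07 (1.91 to 2.23) and 2.14 (1.98 to 2.30), and edgeR called it at an FDR of 0.034. With ACTB reads as the scale the ratio in ATAB was 0.81, short of a call, and INHBB in ATAB was 0.96. The endothelial markers summed to the same order of libraries, and within that list VWF went from 22.3 RPKM in ATFB to 95.8, 143 and 183 while PECAM1 lay between 95.9 and 150.02. Their part in the NOTCH4 values was not tested. The adipocyte markers were lowest in ATFB like SFRP5, FGF1, FZD4 and FGFRL1, and their part was likewise not tested.

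The second question was how sex and castration set the adult libraries apart. Between heifers and bulls, 13 of 74 members were called, 8 higher in ATAH and 5 lower, beside 5.05% and 2.01% of clusters with a named header (4.14% and 1.23% of all clusters). Between steers and bulls, 12 of 75 were called, 8 higher in ATAS and 4 lower, beside 10% and 2.57% (6.86% and 1.87% of all clusters). Between steers and heifers, 4 of 75 were called, 1 higher in ATAS and 3 lower, beside 2.42% and 1.51% (1.52% and 1.48% of all clusters). The median log2 ratio over the members was 0.38 for ATAH over ATAB and 0.32 for ATAS over ATAB, against 0.26 and 0.36 for clusters with a named header. These ratios depend on the scale, since edgeR's TMM factors shift every log2 ratio to ATAB by -0.28 in ATAH and -0.29 in ATAS. With them 4 members were higher and 6 lower in ATAH than in ATAB, beside 2.66% and 3.28% of clusters with a named header. Each comparison rests on 1 library a side, so differences between individual animals and those between sexes cannot be told apart.

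ATAB stood apart from the other adults in both directions. SFRP1 was 5.88-fold higher in ATAH and 4.36-fold higher in ATAS than in ATAB, at log2 ratios of 2.56 (2.12 to 3.02) and 2.12 (1.67 to 2.60). INHBB was 2.65- and 4.66-fold higher, at 1.40 (0.98 to 1.85) and 2.22 (1.82 to 2.64). FGFR3, a kinase receptor of low level here, had no read in ATAB but 24 and 55 in ATAH and ATAS, which is at least 8.29-fold higher in ATAH and at least 19.0-fold higher in ATAS, and it had 10 reads in ATFB.

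FGF2, a widely made FGF, had 11.9 RPKM in ATFB against 10.5, 24.4 and 33.6 in ATAB, ATAH and ATAS, so fetal and bull libraries lay together below the other 2. Its log2 ratio to ATAB was 1.21 (1.11 to 1.32) in ATAH and 1.67 (1.58 to 1.77) in ATAS, and 0.94 in ATAH with TMM factors, short of a call. The gene NUDT6 lies antisense to FGF2, and its cluster shared part of the 11.5% of FGF2 windows found elsewhere. That cluster had at most 39 reads in any library, and its part in the FGF2 values was not tested. SMAD6 and SMAD7, the inhibitory SMADs, had 2.54 and 2.63 RPKM in ATAB and 5.25 and 5.95 in ATAH. SMAD6 was called higher in ATAH and ATAS, at log2 ratios of 1.05 and 1.42, and SMAD7 in ATAH, at 1.18. With TMM factors the values in ATAH fell to 0.77 and 0.90, and those of NOTCH4, called at 1.02 in ATAH and 1.09 in ATAS, to 0.74 and 0.79, so these calls were lost. BMP6, a ligand known for the control of iron, had 5.08 RPKM in ATAB against 9.22 and 13.6 in ATAH and ATAS, and was called in ATAS over ATAB, at 1.42 (1.19 to 1.64). FGF13 had 53 reads in ATAB and 121 in ATAS and was called there at 1.24, or 0.95 with TMM factors.

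SFRP4, WNT2, FGF18 and FGF7 were called higher in the bull library than in 1 or both of the others, as were WNT16 over ATAH and GDF10 over ATAS. SFRP4 was 4.201-fold lower in ATAH and 2.68-fold lower in ATAS than in ATAB, at log2 ratios of -2.07 (-2.16 to -1.98) and -1.42 (-1.50 to -1.35). WNT2 was 3.59- and 2.41-fold lower, at -1.84 (-2.42 to -1.29) and -1.27 (-1.76 to -0.79). FGF18 had 120 reads in ATFB against 133, 51 and 58 in ATAB, ATAH and ATAS, with log2 ratios to ATAB of -1.33 (-1.83 to -0.86) and -1.14 (-1.61 to -0.69). FGF7, the keratinocyte growth factor that stromal cells make, had 16.6, 15.6, 7.09 and 11.4 RPKM in ATFB, ATAB, ATAH and ATAS and was called lower in ATAH, at -1.14 (-1.47 to -0.82). All 4 were nearer to the fetal value in ATAB than in ATAH. Of the 7 stroma and matrix markers, 5 (COL1A1, COL3A1, PDGFRA, LUM, FN1) were higher in ATAB than in both ATAH and ATAS, whereas DCN was higher in ATAS and THY1 was lowest in ATAB. Their part in these values was not tested.

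The steer and heifer libraries had the fewest calls between them. WNT16 was 9.52-fold higher in ATAS than in ATAH, at a log2 ratio of 3.25 (1.78 to 5.20), and it was lower in ATAH than in ATAB, at -3.34. FGF10, a stromal FGF with a known role in fat development, had 8.51, 7.92, 14.1 and 6.63 RPKM in ATFB, ATAB, ATAH and ATAS and was 2.13-fold lower in ATAS than in ATAH (log2 ratio of -1.09, -1.28 to -0.91). GDF10, a BMP-like ligand, had 3.07 RPKM in ATFB against 8.48, 11.04 and 4.04 in ATAB, ATAH and ATAS. It was lower in ATAS than in both other adult libraries, at log2 ratios of -1.07 (-1.35 to -0.79) against ATAB and -1.45 (-1.72 to -1.18) against ATAH, and of the adult libraries the steer one lay nearest to the fetal value. FZD9 had 39, 35, 99 and 48 reads in the 4 libraries, and ATAH exceeded ATAB by 1.55 (0.98 to 2.15) on the log2 scale and ATAS by 1.04.

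**Figure D4:**
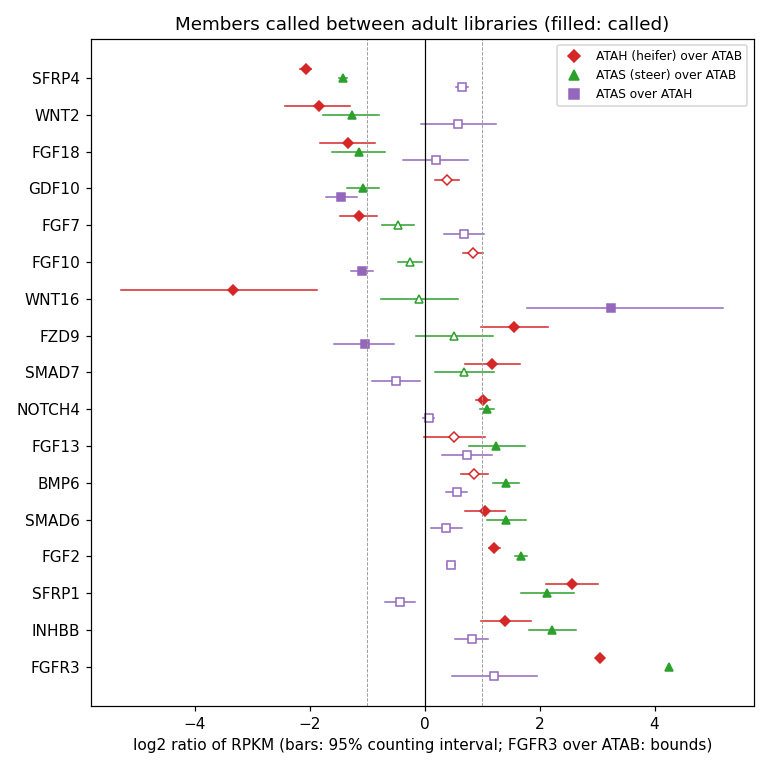
Log2 ratio of RPKM between adult libraries (x axis, with 95% counting intervals) for the 17 members called in at least 1 of these comparisons; filled symbols are calls, and the 2 FGFR3 values over ATAB, which had 0 reads, are lower bounds drawn without an interval. SFRP4 lies to the left and SFRP1, INHBB and FGFR3 to the right in both comparisons with ATAB.

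Other genes of the pathways, which carry none of the 9 words, were taken from 4 lists written from general knowledge. The counts of each list stand beside 13.9% higher and 11.7% lower of clusters with a named header in ATAB, 19.9% and 9.34% in ATAH, 22.7% and 8.74% in ATAS, and 10.7% and 5.19% in all 3. Of 37 measured Wnt genes, 4 were called higher and 8 lower in ATAB than in ATFB, 6 and 8 in ATAH, and 4 and 6 in ATAS. In all 3 adult libraries 2 were higher and 4 lower. APC, a part of the complex that destroys beta-catenin, rose from 5.45 RPKM in ATFB to 14.8, 18.2 and 15.3 in ATAB, ATAH and ATAS. SOST, a secreted Wnt inhibitor known from bone, had 7 reads in ATFB against 83, 657 and 37 in ATAB, ATAH and ATAS. It was 92.0-fold higher in ATAH than in ATFB, at a log2 ratio of 6.52 (5.47 to 7.84), and the heifer library stood far above the other 3. DKK3, of the Dickkopf family, fell from 57.5 RPKM to 22.4, 6.80 and 18.7, and ROR2, a receptor for WNT5A, from 4.25 to 1.28, 0.640 and 1.27.

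Of 33 measured TGF-beta and BMP genes, 1 was called higher and 12 lower in ATAB than in ATFB, 2 and 6 in ATAH, and 5 and 4 in ATAS, with 1 higher and 3 lower in all 3, beside the same shares of named clusters. DCN, a matrix proteoglycan that binds TGF-beta and is also one of the stroma markers, fell from 3916 RPKM in ATFB to 1115, 755 and 1155. BMPER, an extracellular BMP modulator, had 256 reads in ATFB and 73, 114 and 19 in ATAB, ATAH and ATAS. SOSTDC1, an antagonist of BMPs and Wnts, had 46 reads in ATFB and 0 in each adult library, which is 16.2-, 15.7- and 15.6-fold lower with 0 taken as 3 reads. AMHR2, the receptor of anti-Mullerian hormone, rose from 16 reads to 50, 114 and 85.

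Of 17 measured FGF genes, 4 were called higher and 2 lower in ATAB, 4 and 0 in ATAH, and 6 and 1 in ATAS, with 3 higher in all 3 and none lower, to be read against those same shares. SPRY4, a feedback inhibitor of FGF signalling, rose from 2.31 RPKM in ATFB to 5.94, 12.8 and 15.3 in ATAB, ATAH and ATAS. KLB (beta-klotho), the co-receptor through which FGF21 reaches fat cells, rose from 4.59 to 12.6, 17.5 and 20.6 RPKM. IL17RD, another inhibitor of the pathway, had 5 reads in ATFB and 55, 46 and 41 in the adults.

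Of 29 measured Notch genes, 3 were called higher and 5 lower in ATAB, 7 and 6 in ATAH, and 11 and 5 in ATAS, with 2 higher and 5 lower in all 3, against the shares of named clusters given above. DLK1, a Notch-related surface protein of preadipocytes, had 11580 reads in ATFB and 0, 40 and 19 in ATAB, ATAH and ATAS. SNW1, a co-regulator of transcription, fell from 115 RPKM in ATFB to 29.2, 32.2 and 35.0, and NUMBL, a relative of the Notch inhibitor NUMB, from 15.5 to 7.40, 6.78 and 6.65. FURIN, the protease that matures Notch receptors and TGF-beta family ligands, rose from 16.9 to 41.0, 57.5 and 51.9 RPKM.

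**Figure D5:**
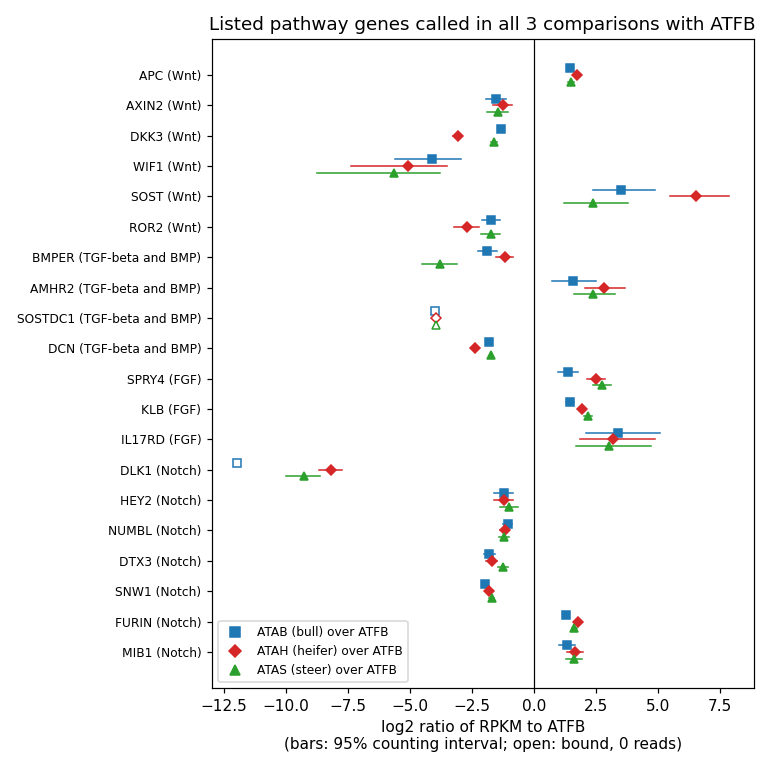
Log2 ratio of RPKM in ATAB, ATAH and ATAS to ATFB (x axis, with 95% counting intervals) for the 20 listed pathway genes called in the same direction in all 3 comparisons, with the pathway list in brackets; open symbols are bounds for libraries with 0 reads. The 3 FGF genes lie to the right of 0, and SOST spans 2.38 in ATAS to 6.52 in ATAH.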

How the data were processed

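Poly(A) RNA of 4 pools was sequenced on an Illumina platform. The authors removed adaptors and discarded redundant reads and those of low quality, and used SOAPaligner, keeping unique matches. Their methods name the masked cattle genome as the reference, whereas the deposited counts are per UniGene cluster, and the reference behind the counts is not given in the sources used here. Per the file headers they deposited, for each UniGene cluster, the count of uniquely matched reads without normalization, the RPKM computed from it and the percent of the sequence covered by reads. The version of the aligner is not given in the sources used here, and the protocol names no strand marking, so sense and antisense reads cannot be told apart. Counts name no genes. Of the 78 members, 49 took a symbol from the header or its RefSeq accession and 29 from the description. No column was left unmapped, and no chromosome positions were used.

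For each pair of libraries, the split of a cluster's reads was tested against the split of the totals (binomial, exact, two-sided; scipy 1.17.1), adjusted by Benjamini-Hochberg over all clusters with a read in the 2, with Clopper-Pearson 95% intervals. Intervals and limits cover counting error alone. No molecular identifiers are named, and how redundant reads were defined is not given in the sources used here. Where no read was found, 3 reads were taken as the upper limit. Bounds made so take the other count as it stands and are not 95% limits. The fetal library was also set against the 3 adult ones with edgeR 4.0.16 (TMM, filterByExpr, quasi-likelihood test, FDR of 0.05), with DESeq2 1.42.0 as an alternative. The binomial test and edgeR's quasi-likelihood test were first run on simulated data. The reads simulated for the binomial test held counting error alone, so that run does not bear on spread between pools. Members and lists were chosen with earlier results of these data known. Named were members called in all 3 comparisons with ATFB (in full where ATFB and the adult library with most gave at least 100 reads), members called between adults, the member of each role with the highest mean RPKM, at most 4 genes per pathway list called in all 3 comparisons, and entries of 1 gene that differ. FZD7, FZD10, FGF12, GDF1, SFRP2, BMP4, BMP7, SMAD2, SMAD3, TGFBR2, FGFR1 and other members outside this rule were added after their values were seen. Of 169 listed pathway genes, 47 lacked a named cluster and were left out, and 2 genes of the pathway and marker lists are not reported here.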

Additional observations from a re-analysis of the deposited data

How the results depend on the processing

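With 1 library a group, no spread between animals could be estimated. With an assumed coefficient of variation of 0.4 between libraries in edgeR's exact test, 1 member (SFRP5) was called in each comparison with ATFB in place of 19, 29 and 27. Between adults, 0 were called in ATAH against ATAB, ATAS against ATAB and ATAS against ATAH in place of 13, 12 and 4. At an FDR of 0.05 these counts were 5 in each comparison with ATFB, and 0, 1 (FGFR3) and 0 between adults. Of the 104 calls, TMM factors lost 9, DESeq2 size factors 10 and ACTB as the scale 7. Calls gained are not in this tally. A change of scale shifts every log2 ratio of a comparison alike, by at most 0.303 in size, so no call could be reversed. TMM and DESeq2 factors moved the median of the members in ATAS against ATAB from 0.32 to 0.020 (TMM) and 0.013 (DESeq2). With ACTB as the scale, 7 members were higher and 14 lower in ATAB than in ATFB, and 14 higher and 16 lower in ATAS than in ATFB. That scale shifts the log2 ratio to ATFB of members and other clusters alike, by -0.24 in ATAB and -0.25 in ATAS. These counts therefore show the effect of the scale and are no result about the members. In the comparison of stages, 12 members were called by the quasi-likelihood test, 23 by edgeR's likelihood ratio test and 19 by DESeq2. Leaving out 1 adult library gave 9 to 25, with 25 without ATAB, 9 without ATAH and 16 without ATAS. The counts of 23, 19 and 16 have no share of named clusters beside them and show the move between settings only. SMAD3, BMP2, SFRP2 and NOTCH4 were not called without ATAH. No paired analysis was possible because each group had 1 library. Depth limits the 23 members with fewer than 100 reads over the 4 libraries, 10 of which had fewer than 10.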
